A study of Homo sapiens with 6 samples.

Results

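One-carbon metabolism passes single-carbon groups from serine, glycine and choline through folate to methionine and the methyl donor S-adenosylmethionine. Expression of 34 genes of this network was measured in Huh7 cells, a human hepatoma line. The genes were picked by symbol for their roles in serine synthesis, glycine cleavage, the folate cycle, the methionine cycle, methionine salvage and transsulfuration. That choice, and the choice of the wider lists below, was made with earlier results of these data known. All 34 were found by Ensembl ID among the 57905 rows of the deposited table.

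In the siASGR1 group, 3 libraries came from cells that received an siRNA against ASGR1, which the labels call AS2. In the siControl group, 3 libraries came from cells that received a scrambled siRNA, which the labels call WT. Both groups were harvested 72 h after transfection, and the same siRNA name is given to all siASGR1 libraries. Any effect of lower ASGR1 and other effects of that siRNA therefore cannot be told apart. The labels do not say whether the libraries of a group came from separate cultures, so p-values measure the spread between libraries, which may be technical.

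Serine is made from a glycolytic intermediate by PHGDH, PSAT1 and PSPH. SHMT enzymes then move a carbon of serine onto tetrahydrofolate, in mitochondria by SHMT2 and in the cytosol by SHMT1, and MTHFD enzymes interconvert the oxidation states of the folate-bound carbon that purine, thymidylate and methionine synthesis use. Methionine is turned into S-adenosylmethionine by MAT enzymes, and the homocysteine left after methyl transfer is either methylated again or passed by CBS and CTH towards cysteine. Adult liver is known for strong betaine-dependent methionine synthesis and for the liver enzymes MAT1A and GNMT.

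Expression is given in FPKM, fragments scaled to exon length and library depth, as the authors deposited it. ASGR1, the subunit of the asialoglycoprotein receptor that the siRNA targets, was listed in the table of the whole series at 4.60, 4.82 and 4.71 FPKM in siASGR1 libraries, against 17.54, 17.56 and 16.90 FPKM in siControl libraries. The single-library files list it at 14.65, 15.81 and 14.04 FPKM in siASGR1 libraries, against the same siControl values, and no other gene differed between the deposits. Which deposit gives ASGR1 correctly is not known, so how far ASGR1 fell is not settled here. Depth rebuilt from the steps between low values was 18477000 to 19253000 fragments in siASGR1 libraries and 16330000 to 19327000 fragments in siControl libraries. The 10 hepatocyte markers summed to 7627 to 7923 FPKM in siASGR1 libraries and 4001 to 4114 FPKM in siControl libraries. AFP was the largest part of that sum, at 3518 FPKM in siASGR1 cells and 2158 FPKM in siControl cells on average. In the limma fit described below all 10 were called higher, against 20.9% of all genes tested. The 9 fibroblast markers summed to 0.70 to 0.95 FPKM in siASGR1 libraries and 6.12 to 7.44 FPKM in siControl libraries, of which COL1A1 and COL1A2 reached the level needed for a test, in siControl libraries alone, so that their lower level in siASGR1 libraries came with their selection. The cholangiocyte markers, with KRT7 at 0 in every library, summed to 41.3 to 42.9 FPKM in siASGR1 libraries and 44.2 to 45.6 FPKM in siControl libraries. Within that sum KRT19 was lower, at 7.91 FPKM in siASGR1 cells and 14.1 FPKM in siControl cells on average. SOX9 was higher, at 31.3 FPKM in siASGR1 cells and 27.3 FPKM in siControl cells. EPCAM averaged 3.11 and 3.64 FPKM and CFTR 0.043 and 0.087 FPKM, in the same order. Leukocyte markers summed to 1.86 to 2.06 FPKM in siASGR1 libraries and 1.98 to 3.19 FPKM in siControl libraries, and the 4 endothelial markers in the table, with KDR and TEK at 0 throughout, to 0.16 to 0.21 FPKM in siASGR1 libraries and 0.05 to 0.14 FPKM in siControl libraries. The part of these shifts in the results below was not tested. In bulk RNA, fewer cells of a type and less RNA per cell cannot be told apart.

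**Figure D1:**
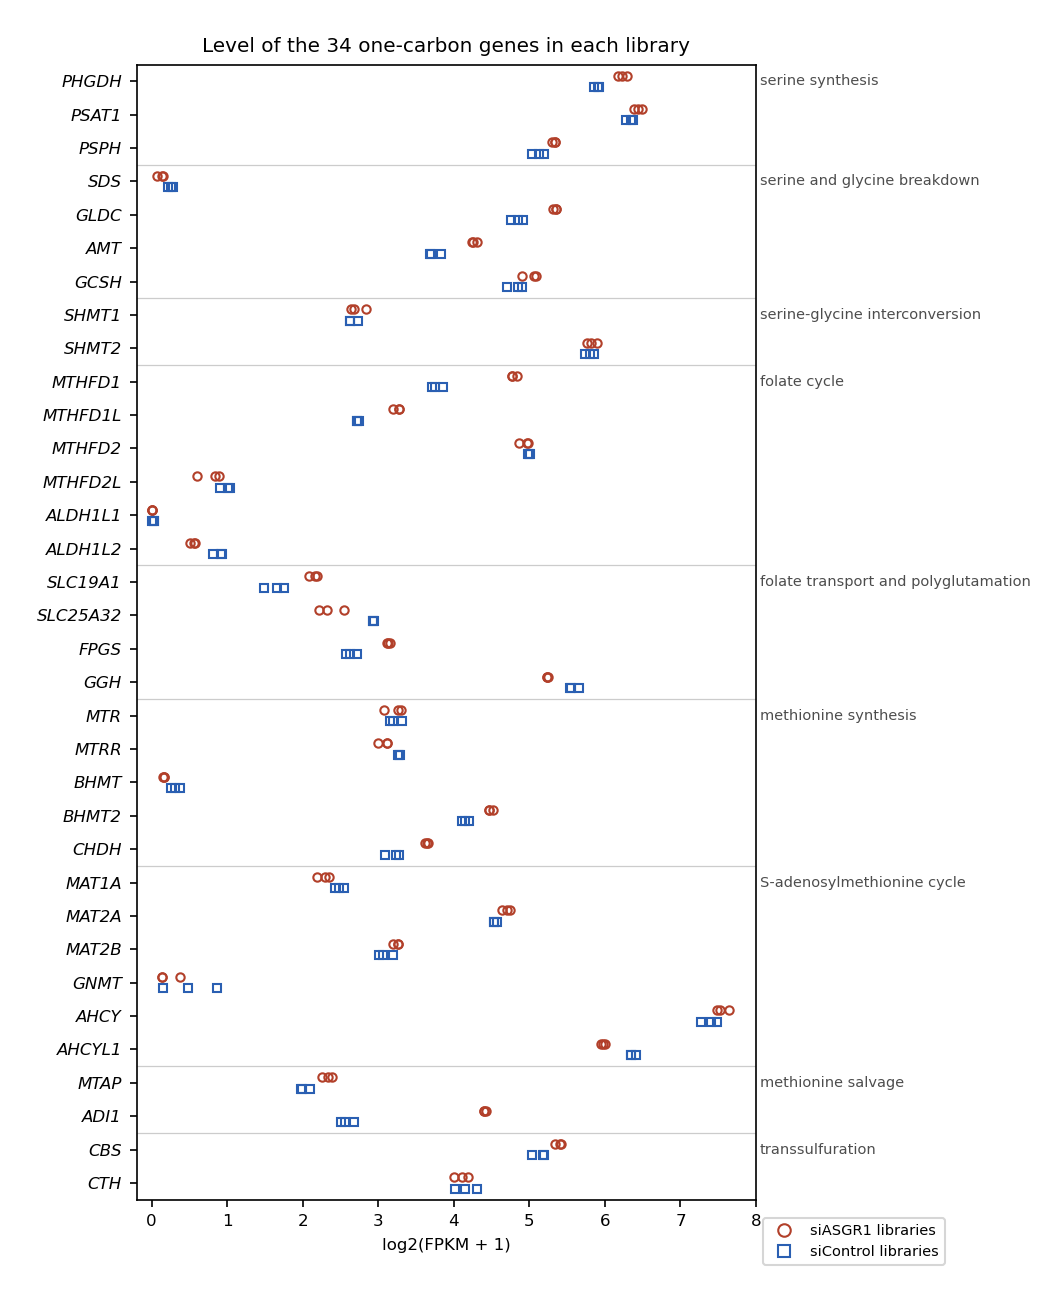
Level of each of the 34 genes in each library on the log2(FPKM + 1) scale, grouped by role, with red circles for siASGR1 libraries and blue squares for siControl libraries. ADI1 and MTHFD1 show the widest gaps between the groups, and 6 genes average under 1 FPKM in both groups.

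Of the 34 genes, 28 reached at least 1 FPKM in at least 3 of the 6 libraries and were tested with limma on log2(FPKM + 1), with Benjamini-Hochberg adjustment over all 13568 genes tested and calls at an adjusted p under 0.05. Of these 28, 15 rose in siASGR1 cells, 5 fell and 8 did not pass. Across all genes tested, 61.3% were called, 20.9% higher and 40.4% lower; among the 28 genes 71.4% were called, 53.6% higher and 17.9% lower. No test of the difference between these shares was run, and the 28 genes come from a choice made with earlier results known. The median log2 fold change was 0.18 over the 28 genes and -0.13 over all genes tested. The groups did not overlap in 21 of the 28 genes, where 67.3% of all genes tested did not overlap. None of the 28 passed the filter on low values through 1 group alone.

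Because the median of all genes lay below 0, the scale matters for small changes. After median-of-ratios scaling the median of all genes tested was -0.0072. On that scale 20 of the 28 genes rose and 3 fell, against 29.9% and 28.9% of all genes tested (82.1% of the 28 and 58.8% of all genes in either direction), and the median over the 28 was 0.33. The 7 genes called with an absolute log2 fold change of at least 0.5 on the deposited scale were ADI1, MTHFD1, AMT, MTHFD1L, SLC19A1 and FPGS, all higher, and SLC25A32, lower. That size was reached by 26.8% of all genes, 8.47% in the higher direction and 18.3% in the lower. Summed over the 34 genes, expression was 872 to 899 FPKM in siASGR1 libraries and 786 to 803 FPKM in siControl libraries, or 0.281% to 0.284% and 0.249% to 0.257% of all FPKM.

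**Figure D2:**
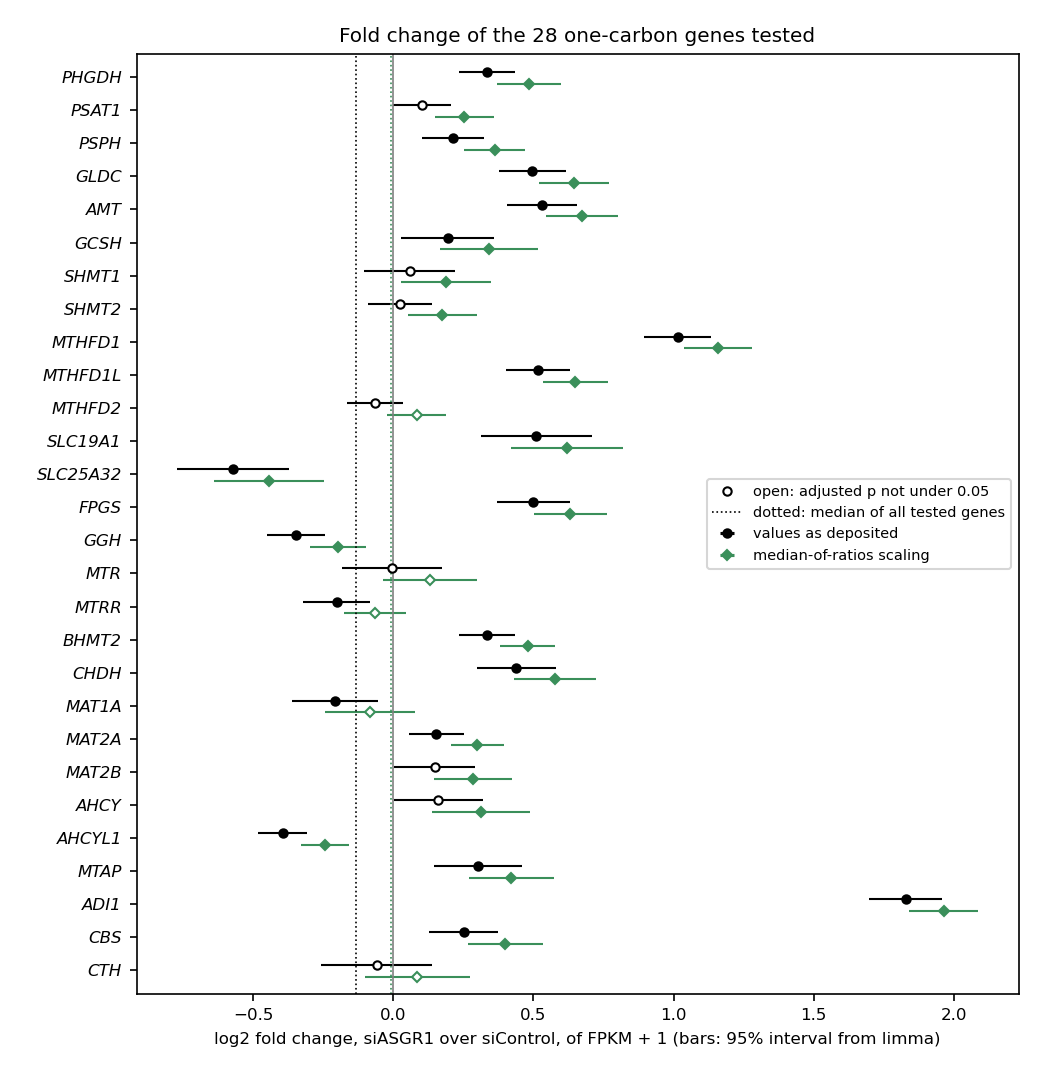
Log2 fold change of the 28 tested genes, siASGR1 over siControl, with 95% intervals from limma; black circles are values as deposited, green diamonds values after median-of-ratios scaling, and open symbols did not pass. ADI1 at 1.83 and MTHFD1 at 1.01 lie farthest to the right and SLC25A32 at -0.57 farthest to the left.

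The largest change was in methionine salvage, the route that returns the sulfur of methylthioadenosine, a by-product of polyamine synthesis, to methionine. ADI1, acireductone dioxygenase, acts late in this route. It was at 20.54, 20.04 and 20.20 FPKM in siASGR1 libraries, against 4.89, 4.69 and 5.41 FPKM in siControl libraries. Every siASGR1 library was far above every siControl library, and the libraries within a group lay close together. The means were 20.3 ± 0.255 FPKM in siASGR1 cells and 5.0 ± 0.372 FPKM in siControl cells (SD, n = 3 each), 4.05-fold higher, with a log2 fold change of 1.83 (SE 0.055, limma adjusted p = 2.03e-06). Counted from the largest, it was number 24 among the genes called higher across the table. ADI1 lies on chromosome 2 from 3497361 to 3519736 on the minus strand (GRCh38, GENCODE v29), and 2059 to 2162 fragments in siASGR1 libraries and 438 to 525 fragments in siControl libraries stood behind its values. Its overlapping antisense transcript AC231981.1 averaged 0.237 FPKM in siASGR1 cells and 0.853 FPKM in siControl cells. GENCODE v29 lists pseudogene copies for 10 of the 34 genes, namely ADI1, MTHFD1, MTAP, MTHFD2, AHCY, GCSH, GLDC, PSAT1, PSPH and SHMT1, and how reads shared with them were assigned is not given, so their levels carry that uncertainty.

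MTAP, the phosphorylase that opens the salvage route by splitting methylthioadenosine, also rose. It averaged 4.01 ± 0.237 FPKM in siASGR1 cells and 3.06 ± 0.180 FPKM in siControl cells, with a log2 fold change of 0.30 (limma adjusted p = 0.00588).

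In the folate cycle MTHFD1 and MTHFD1L rose and MTHFD2 did not pass the test. MTHFD1, the trifunctional cytosolic enzyme that makes formyl-tetrahydrofolate and interconverts it with methylene-tetrahydrofolate, was at 27.47, 26.18 and 26.23 FPKM in siASGR1 libraries, against 12.12, 13.52 and 12.42 FPKM in siControl libraries. The groups were well apart, and the means of 26.6 ± 0.731 FPKM in siASGR1 cells and 12.7 ± 0.737 FPKM in siControl cells differed 2.10-fold (log2 fold change 1.01, SE 0.051, limma adjusted p = 8.5e-06). MTHFD1 lies on chromosome 14 from 64388031 to 64463457 on the plus strand, and ZBTB25, which overlaps it on the opposite strand, averaged 2.04 FPKM in siASGR1 cells and 1.65 FPKM in siControl cells. MTHFD1L, the mitochondrial enzyme that releases formate, was at 8.65, 8.72 and 8.14 FPKM in siASGR1 libraries, against 5.59, 5.73 and 5.60 FPKM in siControl libraries. It rose 1.51-fold without overlap between the groups (log2 fold change 0.52, SE 0.048, limma adjusted p = 0.000103).

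MTHFD2, the mitochondrial dehydrogenase-cyclohydrolase that many dividing cells and tumours express, averaged 29.6 ± 1.27 FPKM in siASGR1 cells and 31.0 ± 0.245 FPKM in siControl cells. Its log2 fold change of -0.064 had a 95% interval of -0.16 to 0.035 (limma adjusted p = 0.224), and median-of-ratios scaling turned it to 0.083. The SHMT pair upstream lay near 0 as well. SHMT1 averaged 5.60 ± 0.496 FPKM in siASGR1 cells and 5.33 ± 0.257 FPKM in siControl cells, a log2 fold change of 0.058 (95% interval -0.11 to 0.22, limma adjusted p = 0.493). SHMT2 averaged 55.8 ± 2.47 FPKM in siASGR1 cells and 54.8 ± 2.28 FPKM in siControl cells, a log2 fold change of 0.025 (95% interval -0.090 to 0.14, limma adjusted p = 0.678). The SHMT enzymes did not pass on the deposited scale; after median-of-ratios scaling SHMT1 was at 0.19 and SHMT2 at 0.18, with limma adjusted p = 0.0474 and 0.0225. Quantile normalization gave 0.22 for SHMT1 (limma adjusted p = 0.0266) and -0.050 for SHMT2 (limma adjusted p = 0.339). Without siASGR1 replicate 2 SHMT2 was at -0.0080 and without siControl replicate 2 at -0.0059.

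The remaining folate dehydrogenases were scarce. MTHFD2L, the paralog of MTHFD2, was at 0.52 to 0.86 FPKM in siASGR1 libraries and 0.88 to 1.05 FPKM in siControl libraries. ALDH1L2, which oxidises formyl-tetrahydrofolate in mitochondria, was at 0.42 to 0.49 FPKM in siASGR1 libraries and 0.75 to 0.91 FPKM in siControl libraries. A fit without the filter on low values called 25.4% of 33948 genes, 7.81% higher and 17.5% lower. There ALDH1L2 was the 1 gene of the 6 left out that passed, with a log2 fold change of -0.34 (limma adjusted p = 0.0467). C12orf45, which overlaps ALDH1L2 on the opposite strand, averaged 3.38 FPKM in siASGR1 cells and 4.14 FPKM in siControl cells. The strand setting of the counting is not given, so reads of this pair may be mixed. ALDH1L1, the cytosolic counterpart of ALDH1L2 and a gene of adult liver, was listed at 0 in all siASGR1 libraries. It was at 0, 0.02 and 0.02 FPKM in siControl libraries, where 3 fragments would be 0.0113 to 0.0134 FPKM.

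Within a library, MTHFD1L relative to MTHFD1 was 0.315, 0.333 and 0.310 in siASGR1 libraries, against 0.461, 0.424 and 0.451 in siControl libraries. This ratio is not changed by a scaling factor applied to a whole library, and it was lower in every siASGR1 library than in any siControl library, by 0.48 on the log2 scale. An exact two-sided permutation test over 3 against 3 libraries gave p = 0.1, the smallest it allows, and 0.15 after adjustment over the 6 paralog pairs with values. SHMT2 relative to SHMT1 was 9.93, 11.1 and 8.99 in siASGR1 libraries and 10.98, 9.32 and 10.6 in siControl libraries, overlapping (exact permutation p = 0.8). MTHFD2 relative to MTHFD2L was 38.6, 35.1 and 54.1 in siASGR1 libraries and 29.3, 35.2 and 30.6 in siControl libraries, also overlapping (exact permutation p = 0.2). For ALDH1L2 and ALDH1L1 no ratio is defined, because of the zeros.

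**Figure D3:**
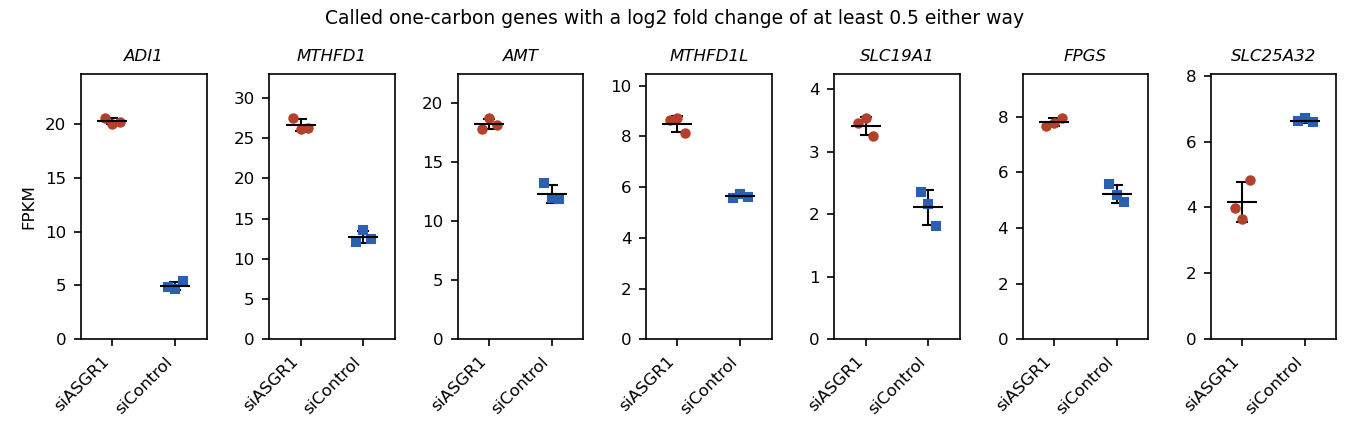
FPKM in each library for the 7 genes called with an absolute log2 fold change of at least 0.5, one panel a gene with its own axis from 0; points are libraries, long horizontal lines the mean and whiskers the SD (n = 3), siASGR1 on the left. The groups do not overlap in any panel, and SLC25A32 is the one gene that is lower in siASGR1 libraries.

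Folate enters cells, is trapped as polyglutamate and is carried into mitochondria by separate proteins. Of the 4 genes of folate transport and polyglutamation, 2 rose (50%, against 20.9% of all genes tested) and 2 fell (50%, against 40.4%). The counts were the same after median-of-ratios scaling. SLC19A1, the reduced folate carrier of the plasma membrane, was at 3.46, 3.54 and 3.25 FPKM in siASGR1 libraries, against 2.36, 2.16 and 1.81 FPKM in siControl libraries. FPGS, which adds the glutamate chain that retains folate in the cell, was at 7.65, 7.78 and 7.94 FPKM in siASGR1 libraries, against 5.56, 5.17 and 4.93 FPKM in siControl libraries. Both were higher in every siASGR1 library than in any siControl library. SLC19A1 rose 1.62-fold (log2 fold change 0.51, SE 0.084, limma adjusted p = 0.00156) and FPGS rose 1.49-fold (log2 fold change 0.50, SE 0.055, limma adjusted p = 0.000217). COL18A1, which overlaps SLC19A1 on the opposite strand, was more abundant, with 24.5 FPKM in siASGR1 cells and 26.4 FPKM in siControl cells on average, and did not pass (limma adjusted p = 0.12).

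SLC25A32, the mitochondrial folate carrier, went the other way. It was at 3.99, 3.66 and 4.83 FPKM in siASGR1 libraries, against 6.61, 6.71 and 6.59 FPKM in siControl libraries, 1.60-fold lower with no overlap (log2 fold change -0.57, SE 0.085, limma adjusted p = 0.000948). SLC25A32 overlaps DCAF13 on the opposite strand, which also fell, with 8.07 FPKM in siASGR1 cells and 11.9 FPKM in siControl cells on average. Since the strand setting of the counting is not given, reads of the pair may be mixed. The same holds for SHMT1 with SMCR8 (7.07 FPKM in siASGR1 cells and 10.0 FPKM in siControl cells) and MAT2A with GGCX (21.4 and 24.5 FPKM). It also holds for BHMT and BHMT2 with DMGDH (2.67 and 1.77 FPKM) and SDS with SDSL (3.58 and 0.947 FPKM). Further such pairs are GNMT with PEX6 (3.63 and 4.14 FPKM), MTRR with FASTKD3 (3.48 and 3.66 FPKM) and SLC19A1 with the more abundant COL18A1. The pairs named are not all that overlap. GGH, the lysosomal hydrolase that removes the glutamate chain, averaged 36.7 ± 0.212 FPKM in siASGR1 cells and 47.0 ± 2.35 FPKM in siControl cells, 1.28-fold lower (log2 fold change -0.35, limma adjusted p = 0.00044). After median-of-ratios scaling GGH was still lower, at -0.20 (limma adjusted p = 0.00577).

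Of the 3 genes of serine synthesis, 2 rose (66.7%, against 20.9% of all genes tested). After median-of-ratios scaling 3 rose, against 29.9% of all genes tested. PHGDH, which commits the glycolytic intermediate to serine, averaged 74.1 ± 2.91 FPKM in siASGR1 cells and 58.6 ± 1.52 FPKM in siControl cells, with a log2 fold change of 0.33 (SE 0.043, limma adjusted p = 0.000441). PSPH, the phosphatase of the final step, averaged 39.2 ± 0.624 FPKM in siASGR1 cells and 33.8 ± 1.84 FPKM in siControl cells, with a log2 fold change of 0.21 (limma adjusted p = 0.00638). PSAT1, the aminotransferase between them, averaged 85.8 ± 3.34 FPKM in siASGR1 cells and 79.8 ± 2.57 FPKM in siControl cells. Its log2 fold change of 0.10 did not pass (95% interval -0.00075 to 0.21, limma adjusted p = 0.078), while median-of-ratios scaling gave 0.25 (limma adjusted p = 0.00216) and quantile normalization gave 0.0090 (limma adjusted p = 0.866).

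The glycine cleavage system, which breaks glycine down in mitochondria and loads its carbon onto folate, has 4 components. All were tested, and on the deposited scale 3 rose, where 20.9% of all genes tested rose, and DLD did not pass. AMT, the aminomethyltransferase that hands the carbon to tetrahydrofolate, was at 17.83, 18.73 and 18.15 FPKM in siASGR1 libraries, against 13.20, 11.93 and 11.86 FPKM in siControl libraries. It was higher in every siASGR1 library than in any siControl library (log2 fold change 0.53, SE 0.053, limma adjusted p = 0.000134). GLDC, the decarboxylase of the system, averaged 39.5 ± 0.657 FPKM in siASGR1 cells and 27.7 ± 1.70 FPKM in siControl cells, 1.42-fold higher, just under the size that AMT reached (log2 fold change 0.496, limma adjusted p = 0.000155). GCSH, the carrier protein, was at 28.80, 32.26 and 33.01 FPKM in siASGR1 libraries and 28.95, 27.76 and 25.12 FPKM in siControl libraries, so the groups overlapped. Its log2 fold change of 0.19 passed by little (limma adjusted p = 0.0456). That call was lost without siASGR1 replicate 2 or 3 or without siControl replicate 2 or 3, at limma adjusted p = 0.117, 0.140, 0.0777 and 0.119. DLD, the lipoamide dehydrogenase shared with other complexes, had a log2 fold change of 0.025 and did not pass. After median-of-ratios scaling DLD passed, at 0.17 (limma adjusted p = 0.0190). SDS, the serine dehydratase of adult liver, was at 0.05 to 0.11 FPKM in siASGR1 libraries and 0.16 to 0.22 FPKM in siControl libraries, which is 3 to 6 and 8 to 11 fragments.

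Of the 4 tested genes of methionine synthesis from homocysteine, 2 rose (50%, against 20.9% of all genes tested) and 1 fell (25%, against 40.4%). After median-of-ratios scaling 2 rose and 0 fell. MTR, the cobalamin-dependent methionine synthase, averaged 8.30 ± 0.769 FPKM in siASGR1 cells and 8.32 ± 0.554 FPKM in siControl cells, with a log2 fold change of -0.0043 (95% interval -0.18 to 0.18, limma adjusted p = 0.965), and its sign changed under every scaling tried. MTRR, which reactivates MTR, averaged 7.43 ± 0.376 FPKM in siASGR1 cells and 8.69 ± 0.0874 FPKM in siControl cells. Its log2 fold change was -0.20 (limma adjusted p = 0.0104), and the call was lost after median-of-ratios scaling (-0.066, limma adjusted p = 0.263). CHDH, which oxidises choline towards betaine, averaged 11.5 ± 0.186 FPKM in siASGR1 cells and 8.22 ± 0.632 FPKM in siControl cells (log2 fold change 0.44, limma adjusted p = 0.000588). BHMT2, which methylates homocysteine with S-methylmethionine, averaged 21.4 ± 0.497 FPKM in siASGR1 cells and 16.8 ± 0.520 FPKM in siControl cells (log2 fold change 0.33, limma adjusted p = 0.000406). BHMT, the betaine-dependent enzyme of adult liver, was close to absent, at 0.11 to 0.12 FPKM in siASGR1 libraries and 0.20 to 0.30 FPKM in siControl libraries, which is 7 to 8 and 12 to 17 fragments.

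Of the 5 tested genes of the S-adenosylmethionine cycle, 1 rose (20%, against 20.9% of all genes tested) and 2 fell (40%, against 40.4%). After median-of-ratios scaling 3 rose and 1 fell. MAT2A, the synthetase found outside adult liver, averaged 24.96 ± 0.972 FPKM in siASGR1 cells and 22.3 ± 0.314 FPKM in siControl cells (log2 fold change 0.15, limma adjusted p = 0.0157), a call lost without siASGR1 replicate 1 or 3 or siControl replicate 2 at limma adjusted p = 0.0596, 0.0521 and 0.0504. MAT1A, the synthetase of adult liver, averaged 3.85 ± 0.263 FPKM in siASGR1 cells and 4.60 ± 0.225 FPKM in siControl cells (log2 fold change -0.21, limma adjusted p = 0.0274). The MAT1A call was lost after median-of-ratios scaling (-0.083, limma adjusted p = 0.325) and without siASGR1 replicate 1 or 3 or siControl replicate 1 or 2, at limma adjusted p = 0.0595, 0.0919, 0.0903 and 0.0674. MAT2B, the regulatory subunit of MAT2A, had a log2 fold change of 0.15 that did not pass (95% interval 0.0041 to 0.29, limma adjusted p = 0.0701) and passed without siControl replicate 3 (limma adjusted p = 0.0162) and after median-of-ratios scaling (0.28, limma adjusted p = 0.00501). Relative to MAT1A, MAT2A was at 6.64, 5.86 and 7.01 in siASGR1 libraries, against 4.71, 4.80 and 5.08 in siControl libraries. That ratio was higher in each siASGR1 library than in any siControl library, by 0.42 on the log2 scale (exact permutation p = 0.1, adjusted 0.15).

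AHCYL1, a paralog of AHCY known as a partner of the inositol trisphosphate receptor, averaged 61.9 ± 1.12 FPKM in siASGR1 cells and 81.8 ± 2.16 FPKM in siControl cells. It was 1.32-fold lower, with no overlap (log2 fold change -0.40, SE 0.037, limma adjusted p = 0.000102). AHCY itself, which hydrolyses S-adenosylhomocysteine and was the most abundant of the 34 transcripts per length, averaged 186 ± 11.1 FPKM in siASGR1 cells and 167 ± 12.6 FPKM in siControl cells, overlapping between groups. Its log2 fold change of 0.16 did not pass (95% interval 0.0018 to 0.32, limma adjusted p = 0.0738), but it passed without siControl replicate 2 (limma adjusted p = 0.0403) and after median-of-ratios scaling (0.31, limma adjusted p = 0.00884), while quantile normalization gave 0.058 (limma adjusted p = 0.487). AHCYL1 relative to AHCY was 0.334, 0.310 and 0.355 in siASGR1 libraries, against 0.476, 0.452 and 0.550 in siControl libraries, lower by 0.56 on the log2 scale with no overlap (exact permutation p = 0.1, adjusted 0.15). GNMT, the glycine methyltransferase that uses up excess methyl groups in adult liver, was at 0.30, 0.10 and 0.10 FPKM in siASGR1 libraries and 0.82, 0.11 and 0.40 FPKM in siControl libraries, overlapping at 2 to 17 fragments a library.

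**Figure D4:**
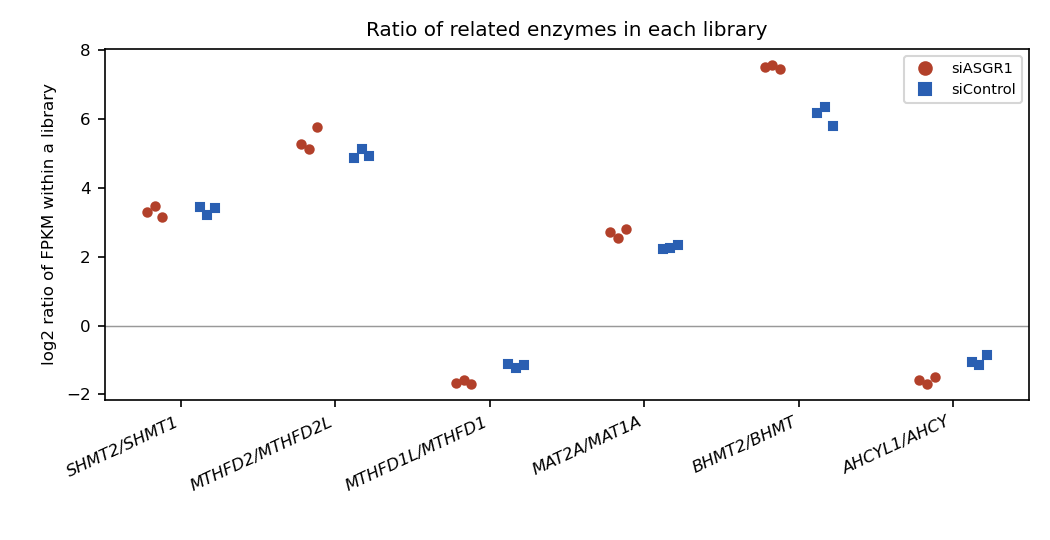
Log2 ratio of the FPKM of a paralog pair within each library, for the 6 pairs with values above 0 in every library; points are libraries, siASGR1 on the left of each pair. The groups do not overlap for MTHFD1L over MTHFD1, MAT2A over MAT1A, BHMT2 over BHMT and AHCYL1 over AHCY, and they overlap for the SHMT and MTHFD2 pairs.

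BHMT2 relative to BHMT was 183, 192 and 176 in siASGR1 libraries, against 72.1, 81.4 and 55.9 in siControl libraries, without overlap (exact permutation p = 0.1, adjusted 0.15). The ratio rests on the few BHMT fragments given above, and adding 0.1 FPKM to both genes moved its log2 difference to 1.02, against 1.41 without.

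In transsulfuration, CBS, which joins homocysteine to serine, averaged 40.9 ± 1.15 FPKM in siASGR1 cells and 34.3 ± 2.05 FPKM in siControl cells, a log2 fold change of 0.25 (SE 0.052, limma adjusted p = 0.00454). CTH, which releases cysteine, averaged 16.2 ± 1.10 FPKM in siASGR1 cells and 16.9 ± 1.85 FPKM in siControl cells. Its log2 fold change of -0.059 did not pass (95% interval -0.26 to 0.14, limma adjusted p = 0.565) and changed sign under median-of-ratios scaling, at 0.085, and without siControl replicate 3, at 0.017.

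The genes around the network were taken from 6 lists by function, holding 76 genes of which 73 were tested; 30 rose (41.1%, against 20.9% of all genes tested) and 23 fell (31.5%, against 40.4%), with a median log2 fold change of 0.030, against -0.13 over all genes. After median-of-ratios scaling 39 rose and 17 fell, against 29.9% and 28.9% of all genes, with a median of 0.17. Of 17 other folate enzymes and carriers, 8 rose and 4 fell, and after median-of-ratios scaling 11 rose and 2 fell. FTCD, which feeds a carbon of histidine into folate, was 3.41-fold higher, with 42.5 ± 1.19 FPKM in siASGR1 cells and 12.5 ± 0.244 FPKM in siControl cells (limma adjusted p = 1.75e-06). TYMS, which makes thymidylate, rose 2.16-fold, and SARDH, which demethylates sarcosine in mitochondria, rose 1.80-fold.

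Of 8 cobalamin genes tested, 3 rose (37.5%, against 20.9% of all genes tested) and 2 fell (25%, against 40.4%). After median-of-ratios scaling 4 rose and 2 fell. MMACHC, which strips the ligand from incoming cobalamin, rose 2.04-fold and CD320, the receptor for its carrier protein, rose 1.53-fold. MMADHC, which routes cobalamin between compartments, was 1.26-fold lower and MMUT, the mitochondrial mutase that needs it, was 1.32-fold lower. Of 7 other salvage and polyamine genes, 5 rose (71.4%) and 0 fell in the limma fit, with the same counts after median-of-ratios scaling. ODC1, which opens polyamine synthesis, was at 81.0 ± 1.81 FPKM in siASGR1 cells and 25.1 ± 1.33 FPKM in siControl cells, 3.23-fold higher (limma adjusted p = 2.03e-06). The polyamine synthases SRM and SMS rose 1.38-fold and 1.27-fold, and MRI1, the isomerase that follows MTAP in salvage, rose 1.138-fold.

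Among 15 methyltransferases that use S-adenosylmethionine, 9 rose (60%, against 20.9% of all genes tested) and 1 fell (6.67%, against 40.4%). Median-of-ratios scaling gave 12 higher and 0 lower. GAMT, which makes creatine, was at 105 ± 6.31 FPKM in siASGR1 cells and 43.2 ± 4.58 FPKM in siControl cells, 2.44-fold higher (limma adjusted p = 2.16e-05). The protein arginine methyltransferases PRMT1 and PRMT5 rose 1.56-fold and 1.38-fold. In the cysteine and glutathione branch 3 of 9 genes rose (33.3%) and 5 fell (55.6%), and median-of-ratios scaling gave 4 higher and 4 lower. GCLM and GCLC, the subunits of the rate-limiting ligase of glutathione synthesis, were 2.24-fold and 1.69-fold lower. CDO1, which oxidises cysteine, rose 1.98-fold, and GSS, the second enzyme of glutathione synthesis, rose 1.44-fold.

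PHGDH, PSAT1, SHMT2, MTHFD2 and ALDH1L2 are known targets of ATF4, the transcription factor of the amino acid response, and this choice of members need not be complete. Of 17 other genes of that response, 2 rose (11.8%, against 20.9% of all genes tested) and 11 fell (64.7%, against 40.4%), with a median log2 fold change of -0.49; after median-of-ratios scaling 3 rose and 9 fell, with a median of -0.36. ATF5, 1 of the 2 that rose and named after its values were seen, reached 1 FPKM in siASGR1 libraries alone. ATF4 itself, counted among the 17, averaged 212 FPKM in siASGR1 cells and 258 FPKM in siControl cells. Its log2 fold change was -0.29 (limma adjusted p = 0.00135), and the call was lost after median-of-ratios scaling (-0.13, limma adjusted p = 0.0595). ATF3, a factor induced by stress, was at 2.29 ± 0.321 FPKM in siASGR1 cells and 10.5 ± 0.515 FPKM in siControl cells, 4.58-fold lower (limma adjusted p = 5.85e-06). The cystine transporter subunit SLC7A11, the glutathione-degrading CHAC1 and the secreted glycoprotein STC2 were 3.82-fold, 3.58-fold and 2.54-fold lower. Beside the median of -0.49, the members named first had log2 fold changes of 0.33 for PHGDH, 0.10 for PSAT1, 0.025 for SHMT2 and -0.064 for MTHFD2. ALDH1L2 was at -0.34 in the fit without a filter. Whether these members and the 17 genes differ was not tested. Of members not named there, PSPH was at 0.21, MTHFD1L at 0.52 and CTH at -0.059.

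**Figure D5:**
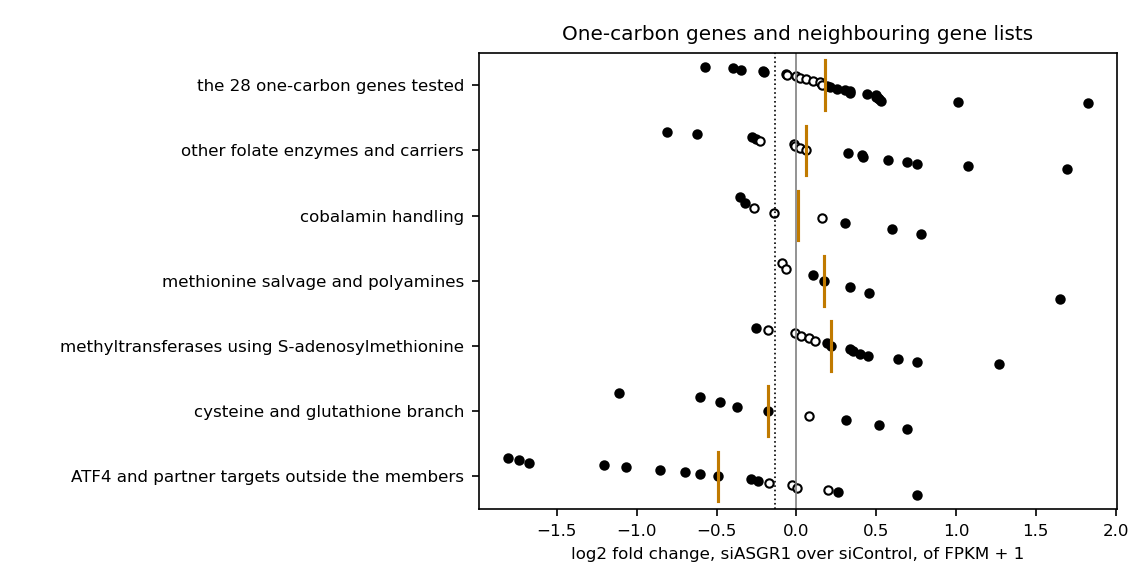
Log2 fold change, siASGR1 over siControl, of every tested gene in the 34-gene network and in the 6 wider lists; filled points were called, open points were not, gold bars are medians and the dotted line is the median of all genes tested, -0.13. The 28 tested members have a median of 0.18 and the genes of the ATF4 response one of -0.49.

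Promoter windows are shown for 5 of the genes that rose most, because ADI1, MTHFD1, MTHFD1L, SLC19A1 and FPGS all held the same short word. RefSeq (GRCh38.p14) gave windows of 300 bases, 250 before a start site to 50 after it, for 28 of the 34 genes, 46 windows in all. The E-box CACGTG, a palindrome bound by MYC and related helix-loop-helix factors, and the ATF4-C/EBP element TGATGNAA were searched on both strands. Below, capitals mark these words, with the E-box at -247 in ADI1, -15 in MTHFD1, -154 in MTHFD1L, -76 in FPGS and 32 in SLC19A1, in bases from the start site to the first base of the word; the second word of MTHFD1L, at -129, is its TGATGCAA, and the words do not overlap. The windows are chr2:3519482-3519781, minus strand, for ADI1; chr14:64388103-64388402, plus strand, for MTHFD1; chr6:150866236-150866535, plus strand, for MTHFD1L; chr9:127802931-127803230, plus strand, for FPGS; and chr21:45541797-45542096, minus strand, for SLC19A1, each written 5′ to 3′ on the strand of the gene.
ADI1: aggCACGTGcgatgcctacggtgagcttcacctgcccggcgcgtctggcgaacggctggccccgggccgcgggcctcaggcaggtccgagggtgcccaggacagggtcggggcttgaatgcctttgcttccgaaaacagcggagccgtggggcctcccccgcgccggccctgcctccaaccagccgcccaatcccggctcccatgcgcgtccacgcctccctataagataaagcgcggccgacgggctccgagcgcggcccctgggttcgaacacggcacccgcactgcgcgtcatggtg
MTHFD1: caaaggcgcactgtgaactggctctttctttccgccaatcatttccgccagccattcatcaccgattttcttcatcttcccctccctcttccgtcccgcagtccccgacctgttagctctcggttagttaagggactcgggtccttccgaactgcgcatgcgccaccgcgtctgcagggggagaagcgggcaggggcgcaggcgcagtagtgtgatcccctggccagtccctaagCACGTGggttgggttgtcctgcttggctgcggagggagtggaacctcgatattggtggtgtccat
MTHFD1L: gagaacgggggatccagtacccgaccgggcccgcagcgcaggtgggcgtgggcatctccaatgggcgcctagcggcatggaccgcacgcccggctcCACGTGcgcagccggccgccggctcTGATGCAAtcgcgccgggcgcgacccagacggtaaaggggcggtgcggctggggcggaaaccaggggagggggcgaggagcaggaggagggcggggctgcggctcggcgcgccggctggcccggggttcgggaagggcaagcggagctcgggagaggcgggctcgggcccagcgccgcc
FPGS: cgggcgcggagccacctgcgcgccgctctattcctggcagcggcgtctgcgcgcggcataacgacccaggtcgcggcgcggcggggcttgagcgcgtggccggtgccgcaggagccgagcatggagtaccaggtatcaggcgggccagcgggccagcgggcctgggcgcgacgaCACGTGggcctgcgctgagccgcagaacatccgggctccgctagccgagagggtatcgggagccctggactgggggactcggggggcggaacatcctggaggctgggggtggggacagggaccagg
SLC19A1: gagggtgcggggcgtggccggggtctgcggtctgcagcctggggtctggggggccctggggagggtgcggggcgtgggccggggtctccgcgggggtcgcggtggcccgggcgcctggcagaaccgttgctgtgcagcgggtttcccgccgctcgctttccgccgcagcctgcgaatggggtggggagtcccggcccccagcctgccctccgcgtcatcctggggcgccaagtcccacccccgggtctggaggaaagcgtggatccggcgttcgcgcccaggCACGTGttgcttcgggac

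The E-box stood in 7 of the 46 windows and in 5 of the 28 genes, against 7.26% of 35116 windows and 8.77% of 27305 genes with a window over the whole table. Those 5 genes were among the 6 that rose with a log2 fold change of at least 0.5, AMT being the sixth, and 0 of the other 22 genes with a window held the word. This split was noticed after the values were seen and was not tested, and MTHFD1L, SLC19A1 and FPGS have 4, 4 and 3 windows, which gives more room for a match. The MTHFD1L windows with the E-box overlap and hold the same site, so the 7 windows count that site more than once. Its distance is -154, -115 or -1, depending on the start site used. The other windows of FPGS and SLC19A1 do not hold the word. SDS, MTHFD2L, ALDH1L1, BHMT and GNMT are among the other 22 genes and were too low to be tested for a change. Over all tested genes with a window, the E-box stood in 14.8% of 817 genes called higher by at least 0.5, in 11.4% of 1591 called lower by as much and in 12.9% of the other 6953. TGATGNAA was found in MTHFD1L alone among the 28 genes, against 4.46% of all genes with a window. A match is a word in a window and does not show that a factor binds there.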

How the data were processed

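Huh7 RNA was sequenced in 3 siASGR1 and 3 siControl libraries. Per the submitters' processing notes, the tools were cutadapt 1.9.1, bcl2fastq 2.17.1.14 and HISAT2 2.0.1, and the build was hg19. The program, strand setting and annotation used for counting were not given in the sources used here. FPKM values were deposited by the authors, rounded to 2 decimals, for 57905 Ensembl IDs. From these, log2(FPKM + 1) was fitted with limma 3.58.1 in R 4.3.3 (group as the only term, trended prior, two-sided) for 13568 genes with at least 1 FPKM in at least 3 libraries; such fold changes understate those of low genes. The fit was checked on simulated data in which few genes changed, evenly in both directions. That check cannot bear on the shift of the median seen here. Depth was rebuilt with GENCODE v29 exon lengths: 94.6% to 95.4% of low values came out as whole fragments within rounding, against 11.1% to 13.0% by chance, a share the fit had maximised. Limits from fragments hold for counting error alone. Libraries of 1 group differed by 2.57 to 5.64 times the chi-square that sampling noise gives, so no pair agreed within noise. Library values are printed for called members with an absolute log2 fold change of at least 0.5 and their paralogs, and, beyond that rule and chosen after their values were seen, for GCSH and GNMT; up to 4 called genes with the largest change are named per wider list, some of which are not reported here, and DLD was added. The members and lists were chosen with earlier results of these data known. Coordinates are GRCh38 because the table carries none. Plots were drawn with matplotlib 3.10.9, and other tables made with pandas 2.3.3, numpy 2.4.6 and scipy 1.17.1 under Python 3.11.15.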

Additional observations from a re-analysis of the deposited data

How the results depend on the processing

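The limma fits were recomputed under 15 alternatives in scaling, pseudocount, filter, variance prior, replicate block, deposited source and libraries. The paralog ratios were recomputed only with 0.1 FPKM added and without 1 library at a time. Of the 20 called genes, 16 kept direction and call in all that were run for them (GCSH, MTRR, MAT1A and MAT2A did not). Of the 8 others, 0 kept theirs in all. SLC19A1, MAT1A and MTAP were below the filter at 5 FPKM and had 14. The deposits differ in ASGR1 alone, so the change of source kept every member's values and is no test of their calls. The count of members lower was 3 under median-of-ratios, upper-quartile and quantile scaling, against 5, and with a filter at 5 FPKM 3382 genes were lower over all genes, against 5480, since fewer genes were tested. BHMT2 over BHMT moved to 1.02 with 0.1 FPKM added. Signs turned for uncalled genes: with median-of-ratios, upper-quartile and quantile scaling MTR was at 0.132, 0.0648 and 0.117 and CTH at 0.0849, 0.0138 and 0.0136; with the first 2 MTHFD2 was at 0.0835 and 0.0105; and with quantile scaling SHMT2 was at -0.0499. Without 1 library at a time SHMT1 ranged from -0.00235 to 0.0967, SHMT2 from -0.00805 to 0.0540, MTR from -0.0504 to 0.0649 and CTH from -0.131 to 0.0172. The cause of the other shifts was not tested. Leaving out 1 library at a time gave 13 to 15 members higher and 4 to 5 lower, and 2495 to 2757 genes higher and 4950 to 5151 lower across the table. Replicate numbers did not pair the libraries: the correlations of deviations of same-numbered libraries were -0.019, 0.0021 and 0.012. With the replicate number as a block, 15 members were higher and 5 lower, GCSH lost its call (limma adjusted p = 0.0860) and AHCY passed (limma adjusted p = 0.0257), and 2761 genes were higher and 5303 lower across the table. With 3 libraries a group and few fragments, SDS, BHMT, GNMT and ALDH1L1 cannot show small differences.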
